A study of Homo sapiens with 4 samples.

Results

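A set of 10 genes that write or maintain silent chromatin, out of the 58735 genes counted, was followed in A549 cells depleted of RALY. They were chosen by symbol and matched to their Ensembl gene identifiers: the DNA methyltransferases DNMT1, DNMT3A and DNMT3B, the maintenance cofactors UHRF1 and HELLS, the histone methyltransferases EZH2, SETDB1, SUV39H1 and EHMT2, and the corepressor TRIM28. The 10 genes, and the gene lists further below, were chosen with earlier results of these data known. A549 is a human lung adenocarcinoma line, labelled as alveolar basal epithelial cells. The shRALY libraries came from cells infected with shRALY lentivirus (genotype label RALY knockdown), and the shControl libraries from cells infected with shctrl lentivirus (genotype label WT). Both groups carried a lentiviral hairpin, were labelled day 2 and had 2 libraries each. RALY binds RNA and belongs to the heterogeneous nuclear ribonucleoproteins. Whether 1 or several hairpins were used, and whether replicates were separate cultures, is not given in the sources used here, so the p-values reflect only how far these libraries spread, which may be technical.

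DNA methylation in mammals is copied after each round of replication. UHRF1 recognises the hemimethylated CpG left behind the fork and recruits DNMT1, which methylates the new strand, while the chromatin remodeller HELLS opens nucleosomal DNA for them. DNMT3A and DNMT3B place methyl groups on sites that carried none. Histone marks form a parallel layer of repression: EZH2, the catalytic subunit of Polycomb repressive complex 2 (PRC2), methylates lysine 27 of histone H3 (H3K27), and SUV39H1, SETDB1 and EHMT2 methylate lysine 9 (H3K9). TRIM28 (KAP1) is brought to DNA by KRAB zinc finger proteins and in turn recruits SETDB1.

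Poly(A)-selected libraries held 16745818 to 18632787 counted reads, given below as CPM, counts scaled to a common TMM-adjusted library size. RALY stood at 40.9 and 41.5 CPM in shRALY libraries, against 123 and 133 CPM in shControl libraries (log2 fold change -1.64, SE 0.11; adjusted p = 5.85e-11 by the quasi-likelihood test of edgeR, Benjamini-Hochberg over all tested genes). All 6 epithelial markers examined and all 6 metabolic genes abundant in A549 were detected, EPCAM at only 2.29 to 3.54 CPM. The epithelial markers summed to 9291 and 9396 CPM in shRALY and 8163 and 8889.9 CPM in shControl. KRT7, CDH1 and KRT19 were called higher in shRALY, KRT19 at 324 and 299 CPM against 90.2 and 101 CPM in shControl. AKR1C1 and AKR1C2 were called lower, and the rest of these markers and metabolic genes were not called. Of 8 alveolar type 2 markers, SFTPA1, SFTPB, SFTPC, SFTPD and NKX2-1 stayed under 1 CPM in every library, while NAPSA stood at 0.673 to 1.63 CPM and ABCA3 at 72.2 to 103 CPM. The remaining one, LAMP3, was called higher, with 27.2 and 36.3 CPM in shRALY and 0.0558 and 0.235 CPM in shControl; its part in the results was not tested. Immune markers stayed under 1 CPM in 7 of 8 cases (CD14 was the exception), fibroblast markers in 4 of 7 (not COL1A1, COL3A1 and PDGFRA) and endothelial markers in 5 of 5. Without molecular identifiers reads are not independent molecules, and in bulk RNA fewer cells expressing a gene and less RNA per cell cannot be told apart.

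Of the 10 silencing genes 7 were lower in shRALY, 0 were higher and 3 did not pass an edgeR adjusted p of 0.05. The background was 20.4% of the 15912 tested genes called lower and 20.6% called higher. These stood for 3245 lower and 3274 higher genes, which became 1881 lower without shRALY replicate 1, and 1961 lower and 2024 higher without shRALY replicate 2. All 10 passed the filter on low counts. By unadjusted p under 0.05 the counts were 8 lower and 0 higher, and by DESeq2 7 lower and 0 higher. The shares of all tested genes at these settings are not given here, nor for the lists below. The median log2 fold change of the 10 genes was -1.48, against -0.01 over all tested genes. In 8 of the 10 genes both shRALY libraries lay below both shControl libraries, an arrangement seen in 35.4% of tested genes. In 1 gene, SETDB1, both lay above, as in 34.2% of tested genes. Together the 10 genes summed to 861 and 865 CPM in shRALY and to 1631 and 1771 CPM in shControl, and TRIM28 alone made up most of each sum.

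**Figure D1:**
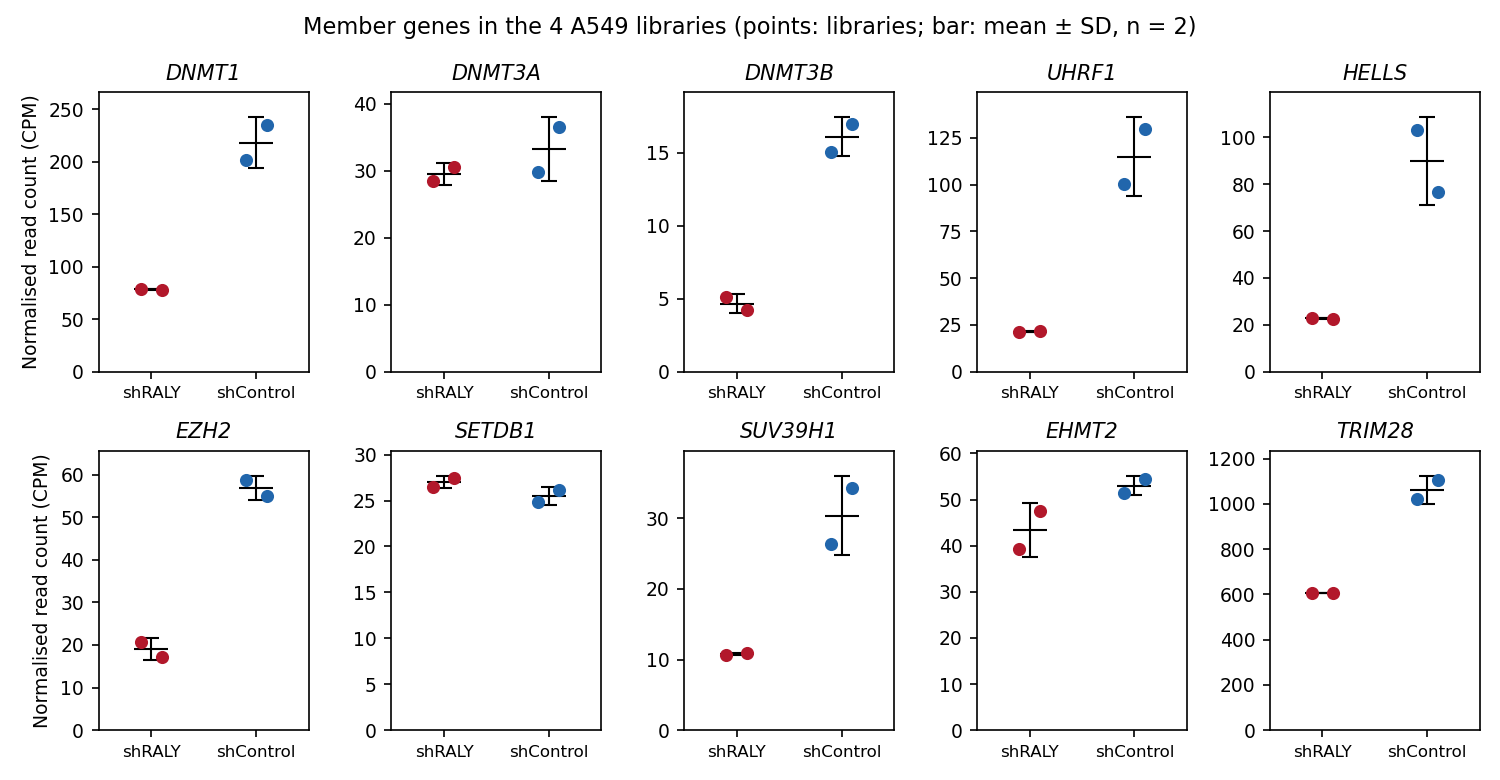
Normalised read counts (CPM, linear axes from 0) of the 10 genes in each library, shRALY left and shControl right; points are libraries, bars the mean ± SD of 2 libraries. The groups are separated for every gene except DNMT3A, and SETDB1 is the 1 gene with the shRALY libraries on top. Of all tested genes, 35.4% had both shRALY libraries below both shControl libraries and 34.2% had both above.

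Of the genes that copy DNA methylation, UHRF1 fell the most. UHRF1, on chromosome 19 at 4903080 to 4962154 of GRCh38 (plus strand), had 21.2 and 21.5 CPM in shRALY libraries, against 100.1 and 129.6 CPM in shControl libraries. The shRALY libraries nearly coincided and the shControl libraries differed by more, yet the groups lay far apart. UHRF1 was thus at 21.3 ± 0.173 CPM in shRALY and 115 ± 20.9 CPM in shControl (SD, n = 2 each), 5.38-fold lower (log2 -2.43, SE 0.13; edgeR adjusted p = 1.06e-12). Among all tested genes 217, or 1.36%, had a lower log2 fold change. Its longest transcript shares 25.6% of its 50-base words with other genes, chiefly AC112777.1 on chromosome 12, so reads may have been divided between them. AC112777.1 had 24 and 33 reads in shRALY and 165 and 182 in shControl. UHRF1 itself had 390 and 351 reads in shRALY and 1792 and 2207 in shControl, so that both genes, and their sum, had fewer reads in shRALY.

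DNMT1, the maintenance methyltransferase, lies on the minus strand of chromosome 19 at 10133345 to 10231286. It had 78.9 and 78.1 CPM in shRALY libraries and 201 and 235 CPM in shControl libraries. It was 2.78-fold lower, at 78.5 ± 0.524 CPM in shRALY and 218 ± 24.0 CPM in shControl (log2 -1.47, SE 0.11; edgeR adjusted p = 2.9e-10). HELLS, on chromosome 10 at 94501434 to 94613905 (plus strand), had 23.0 and 22.6 CPM in shRALY and 103 and 76.6 CPM in shControl. It was 3.94-fold lower (log2 -1.98, SE 0.14; edgeR adjusted p = 6.63e-11). The shControl libraries were not ordered alike across these genes, since shControl replicate 1 was the lower one for UHRF1 and DNMT1 and the higher one for HELLS. For all 3 genes the shRALY libraries agreed to within 1 CPM.

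The de novo methyltransferases differed in what the test called. DNMT3B, on chromosome 20 at 32762385 to 32809356 (plus strand), had 5.11 and 4.22 CPM in shRALY libraries and 15.1 and 17 CPM in shControl libraries. It rested on 94 and 69 reads in shRALY, the fewest of the 10 genes, against 271 and 290 reads in shControl. It was 3.43-fold lower (log2 -1.78, SE 0.20; edgeR adjusted p = 1.62e-07). DNMT3A, on chromosome 2 at 25227855 to 25342590 (minus strand), had 28.4 and 30.6 CPM in shRALY libraries and 29.8 and 36.5 CPM in shControl libraries. Here the groups overlapped, and the gene did not pass (log2 -0.17, SE 0.14; edgeR adjusted p = 0.353). Without shControl replicate 1 it did pass (log2 -0.31; edgeR adjusted p = 0.0383). The catalytically inactive cofactor DNMT3L had 0 reads in each library, which allows up to 0.163 to 0.183 CPM. The difference between the DNMT3A and DNMT3B fold changes was not itself tested.

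Since DNMT1, HELLS and DNMT3B fell together, 1 promoter window of each is shown. It was read for letters of the E2F site, the motif of factors that drive S-phase genes. The RefSeq windows cover 250 bases before and 50 after the annotated start on GRCh38.p14, and 4 of the 10 genes had one (DNMT1, DNMT3B, HELLS and EHMT2). The E2F letters searched were TTTCCCGC, TTTCGCGC, TTTGCCGC and TTTGGCGC on both strands, found in 3.31% of 35116 windows. They are in capitals below, in windows at chr19:10194904-10195203 (minus strand, DNMT1), chr10:94545538-94545837 (plus strand, HELLS) and chr20:32779602-32779901 (plus strand, DNMT3B), each printed in the direction of transcription.
DNMT1: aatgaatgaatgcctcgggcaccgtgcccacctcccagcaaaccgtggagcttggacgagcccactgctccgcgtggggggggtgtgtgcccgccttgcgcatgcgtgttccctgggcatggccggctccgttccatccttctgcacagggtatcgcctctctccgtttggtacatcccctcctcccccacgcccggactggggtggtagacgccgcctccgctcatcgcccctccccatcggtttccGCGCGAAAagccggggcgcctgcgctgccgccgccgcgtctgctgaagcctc
HELLS: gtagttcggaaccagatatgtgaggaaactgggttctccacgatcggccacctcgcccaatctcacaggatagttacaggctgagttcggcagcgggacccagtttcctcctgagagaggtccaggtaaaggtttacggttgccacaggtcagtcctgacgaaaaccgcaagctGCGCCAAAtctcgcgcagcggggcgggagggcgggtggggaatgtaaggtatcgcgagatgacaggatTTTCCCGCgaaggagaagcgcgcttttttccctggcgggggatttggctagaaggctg
DNMT3B: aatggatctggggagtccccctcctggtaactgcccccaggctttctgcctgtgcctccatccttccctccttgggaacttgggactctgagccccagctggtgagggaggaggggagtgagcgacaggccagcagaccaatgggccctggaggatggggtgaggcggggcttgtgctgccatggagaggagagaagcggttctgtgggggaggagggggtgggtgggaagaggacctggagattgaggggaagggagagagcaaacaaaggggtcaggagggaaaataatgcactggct
DNMT1 held 1 match, on the strand opposite to transcription, whose first base was at position -2 (the start is +1 and the base before it -1). HELLS held 2, at -76 on the opposite strand and at -8 in the direction of transcription. The DNMT3B and EHMT2 windows held none. A CCAAT box (CCAAT, either strand; 34.6% of windows) was in the HELLS and DNMT3B windows, and the CHR element (TTTGAA or TTCGAA, either strand; 16.4% of windows) in none of the 4. The DNMT1, HELLS and EHMT2 windows held 30, 22 and 25 CpG dinucleotides, and the DNMT3B window 3, against a median of 14 over all windows. The windows lie at 1 annotated start a gene, and the GENCODE spans of DNMT1, DNMT3B and HELLS extend further upstream. The DNMT3B span begins at 32762385, well before its window at 32779602. The HELLS span begins at 94501434, before 94545538, and the DNMT1 span, on the minus strand, at 10231286, beyond 10195203. The windows of DNMT1, HELLS and DNMT3B therefore all lie inside the spans. The E2F matches of DNMT1 and HELLS describe such internal windows, as do the missing E2F letters and few CpG dinucleotides of DNMT3B. None of them describes the promoter at the span's start. A match describes these letters only.

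Among the histone methyltransferases, EZH2 and SUV39H1 were lower and SETDB1 and EHMT2 did not pass. EZH2, on chromosome 7 at 148807383 to 148884321 (minus strand), had 20.8 and 17.2 CPM in shRALY libraries and 58.8 and 54.9 CPM in shControl libraries. It was 2.99-fold lower, at 19.0 ± 2.58 CPM in shRALY and 56.9 ± 2.80 CPM in shControl (log2 -1.58, SE 0.13; edgeR adjusted p = 1.88e-09). SUV39H1, which trimethylates H3K9 in pericentromeric heterochromatin, lies on chromosome X at 48695554 to 48709012 (plus strand). It had 10.7 and 10.9 CPM in shRALY libraries and 26.4 and 34.3 CPM in shControl libraries, 2.81-fold lower (log2 -1.49, SE 0.16; edgeR adjusted p = 1.14e-07). An opposite-strand gene, AC231533.1, overlaps 20.3% of its exonic bases, and that gene had 0 reads in each library.

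SETDB1, the H3K9 methyltransferase of the TRIM28 pathway, lies on chromosome 1 at 150926263 to 150964744 (plus strand). It had 26.5 and 27.5 CPM in shRALY libraries and 24.8 and 26.1 CPM in shControl libraries, values that differed by less than 3 CPM across all 4 libraries. Its log2 fold change was 0.09 (SE 0.14; edgeR adjusted p = 0.654). Part of its exonic sequence, 13.4%, is overlapped by CERS2 on the opposite strand, a gene at 153 and 154 CPM in shRALY and 138 and 155 CPM in shControl, and whether counting used strand is not given in the sources used here. EHMT2 (G9a), on chromosome 6 at 31879759 to 31897687 (minus strand), catalyses mono- and dimethylation of H3K9. It had 39.2 and 47.6 CPM in shRALY libraries and 51.5 and 54.5 CPM in shControl libraries. Both shRALY values lay below both shControl values, but the gene missed the threshold (log2 -0.29, SE 0.12; edgeR adjusted p = 0.0684). It passed without shControl replicate 1 (edgeR adjusted p = 0.012) and with library size alone as scaling (edgeR adjusted p = 0.0286). The log2 value was -0.15 without shRALY replicate 1.

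TRIM28 was by far the most abundant of the 10 genes. It lies on chromosome 19 at 58544091 to 58550722 (plus strand) and had 607 and 605 CPM in shRALY libraries, against 1020.0 and 1106 CPM in shControl libraries. It was at 606 ± 1.26 CPM in shRALY and 1063 ± 61.0 CPM in shControl, 1.75-fold lower (log2 -0.81, SE 0.10; edgeR adjusted p = 4.54e-07). This was the smallest of the 7 falls, with 10.9% of tested genes having a lower log2 fold change. For the other 6 that share was 1.36% to 3.76%.

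Levels of different genes can be set side by side only per length, and CPM per kilobase of annotated exon union was used for that. In shControl, TRIM28 stood at 264 ± 15.1, followed by DNMT1 at 22.3 ± 2.45 and UHRF1 at 22.3 ± 4.06, which did not differ beyond their spread. EZH2 (12.6 ± 0.619), SUV39H1 (9.02 ± 1.67), HELLS (8.85 ± 1.84) and EHMT2 (7.27 ± 0.291) came next. The SD ranges of SUV39H1, HELLS and EHMT2 overlapped. SETDB1 (3.59 ± 0.133), DNMT3B (3.47 ± 0.289) and DNMT3A (2.76 ± 0.394) were lowest, and SETDB1 and DNMT3B did not differ beyond their spread. In shRALY the order was TRIM28 (150.2 ± 0.312), DNMT1 (8.01 ± 0.0534), EHMT2 (5.96 ± 0.816), EZH2 (4.20 ± 0.571), UHRF1 (4.15 ± 0.0337), SETDB1 (3.81 ± 0.0964), SUV39H1 (3.21 ± 0.0592), DNMT3A (2.46 ± 0.132), HELLS (2.25 ± 0.0233) and DNMT3B (1.01 ± 0.137). EZH2 and UHRF1 did not differ beyond their spread there. Nor did EZH2 and SETDB1, with libraries at 4.61 and 3.8 for EZH2 and at 3.74 and 3.88 for SETDB1. UHRF1, level with DNMT1 in shControl, was thus at about the level of EZH2 and SETDB1 in shRALY. DNMT3B lay above DNMT3A per kilobase in shControl and below it in shRALY, in both libraries of each group. This order depended on the length used. With the longest transcript in place of the exon union, the shRALY levels were 14.5 for DNMT1, 10.5 for EHMT2, 6.09 for SETDB1, 5.22 for EZH2, 4.95 for UHRF1 and 4.57 for HELLS, so that SETDB1 passed EZH2 and UHRF1, and HELLS passed SUV39H1 (3.63) and DNMT3A (3.11). In shControl they were 40.4 for DNMT1, 26.6 for UHRF1, 18 for HELLS, 15.6 for EZH2, 12.8 for EHMT2 and 10.2 for SUV39H1. DNMT1 thus stood above UHRF1, and EHMT2 above SUV39H1. HELLS was above EZH2 in the mean alone, as the libraries of HELLS and EZH2 overlapped. TRIM28 was highest, and DNMT3B was below DNMT3A in shRALY, on both lengths. In shControl the mean of DNMT3B was above that of DNMT3A on both. By longest transcript, however, it was only 3.71 against 3.49, and the libraries of these genes overlapped.

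**Figure D2:**
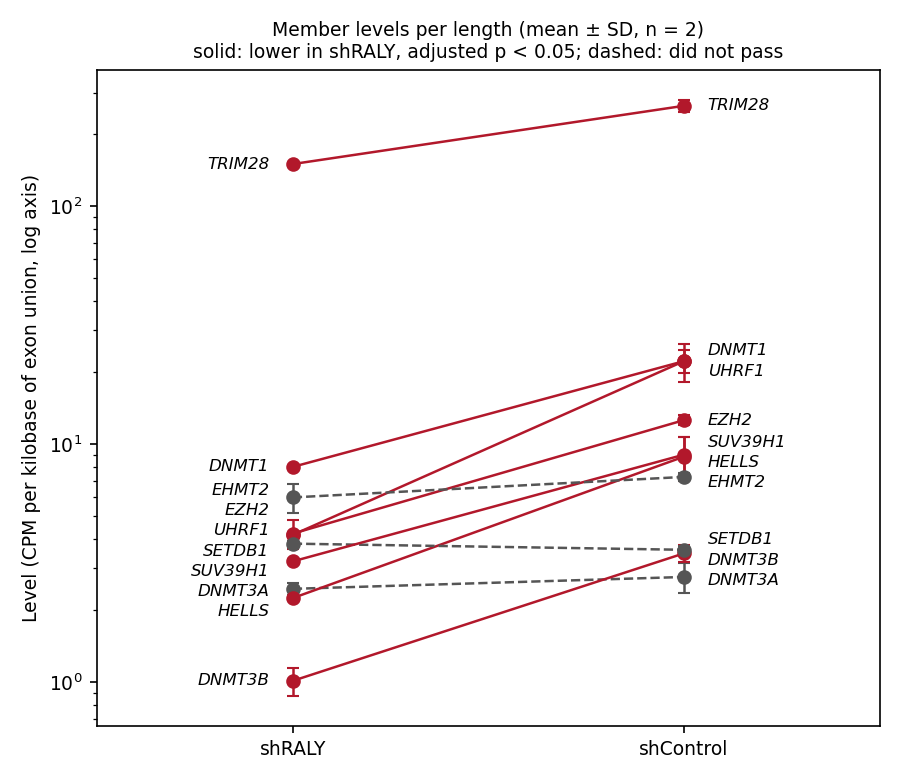
Levels of the 10 genes per kilobase of exon union (CPM per kilobase, log axis) in shRALY (left) and shControl (right); points and bars are the mean ± SD of 2 libraries. Solid red lines mark the 7 genes called lower in shRALY (edgeR adjusted p under 0.05), and dashed grey lines DNMT3A, SETDB1 and EHMT2, which did not pass and are flatter.

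Some of the 10 genes have a close paralog among the genes listed for the pathway, and these were set beside them; the paralogs UHRF2, EZH1, EHMT1 and SETDB2 were singled out after their values were seen. UHRF2 had 56.7 and 49.9 CPM in shRALY and 64.9 and 57.0 CPM in shControl and did not pass (log2 -0.19, SE 0.12; edgeR adjusted p = 0.215), except without shControl replicate 2 (edgeR adjusted p = 0.0358). EZH1, the alternative catalytic subunit of PRC2, averaged 19.7 ± 0.977 CPM in shRALY and 26.0 ± 2.99 CPM in shControl, and its small fall (log2 -0.40; edgeR adjusted p = 0.0332) was lost by DESeq2 (adjusted p = 0.117) and without shRALY replicate 1 (edgeR adjusted p = 0.294), shRALY replicate 2 (0.155) or shControl replicate 2 (0.162). SUV39H2 fell to 10.8 ± 0.695 CPM in shRALY, against 21.2 ± 3.05 CPM in shControl (log2 -0.97; edgeR adjusted p = 6.1e-05). EHMT1, the partner of EHMT2 in their heterodimer, averaged 81.1 ± 3.76 CPM in shRALY and 109 ± 6.02 CPM in shControl (log2 -0.43; edgeR adjusted p = 0.00318), but missed the threshold when shRALY replicate 1 (0.161) or 2 (0.0697) was left out. SETDB2 averaged 5.64 ± 0.023 CPM in shRALY and 7.06 ± 0.275 CPM in shControl and did not pass (log2 -0.32; edgeR adjusted p = 0.253). The difference in fold change within a pair was not tested.

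**Figure D3:**
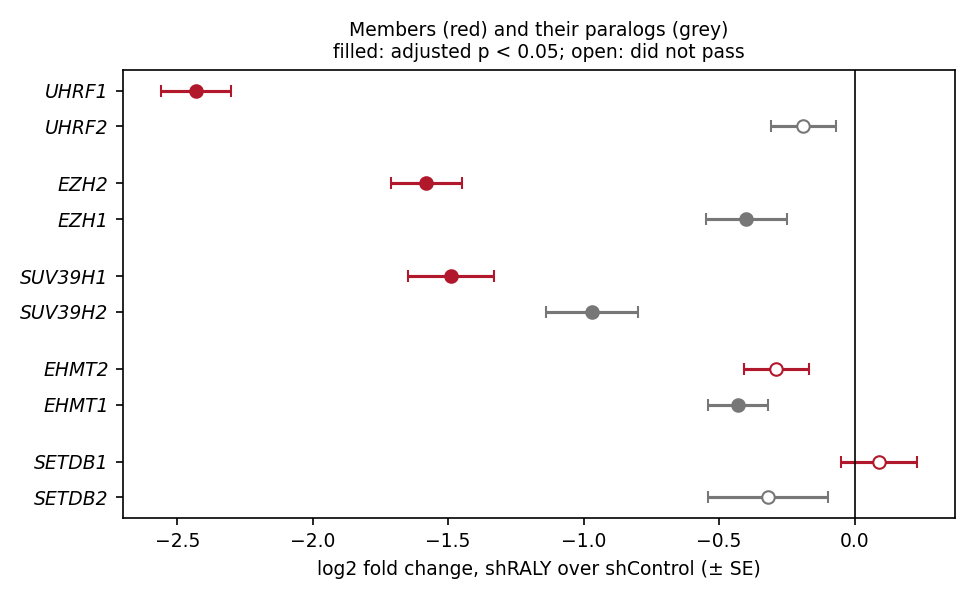
Log2 fold change (shRALY over shControl, ± SE) of UHRF1, EZH2, SUV39H1, EHMT2 and SETDB1 (red) with the paralog of each below it (grey). Filled points passed an edgeR adjusted p of 0.05. UHRF1 at -2.43 and EZH2 at -1.58 lie far to the left of UHRF2 at -0.19 and EZH1 at -0.40. SUV39H1 at -1.49 lies to the left of SUV39H2 at -0.97. In the other pairs the order is reversed, with EHMT2 at -0.29 and EHMT1 at -0.43, and SETDB1 at 0.09 and SETDB2 at -0.32. Differences within a pair were not tested.

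Partners of the DNA methylation machinery were lower along with it. Of 14 listed partners 13 were tested, 11 were lower and 0 higher (also 11 and 0 by unadjusted p under 0.05 and by DESeq2), with a median log2 fold change of -0.85. Of all tested genes 20.4% were lower and 20.6% higher. Below, the most abundant gene of a list is the one highest per kilobase of exon union, a rank that another length or plain CPM can change. PCLAF, a PCNA-associated protein that helps to bring DNMT1 to replicating DNA, fell to 5.07 ± 0.518 CPM in shRALY, against 54.1 ± 13.2 CPM in shControl (log2 -3.41, SE 0.18; edgeR adjusted p = 5.25e-13). A same-strand gene overlaps 28.8% of PCLAF exonic bases, so its count is uncertain. CDCA7L fell 5.40-fold, to 2.61 ± 0.232 CPM in shRALY against 14.2 ± 0.0578 CPM in shControl, with 20.4% of its exonic bases overlapped on the opposite strand. PCNA, the sliding clamp, also listed with the replication genes and the most abundant partner per kilobase, averaged 218 ± 14.3 CPM in shRALY and 403 ± 27.5 CPM in shControl (1.85-fold lower; edgeR adjusted p = 3.87e-07). CDCA7, which recruits HELLS, was 2.21-fold lower, and USP7, a deubiquitinase that binds DNMT1 and UHRF1, was 1.80-fold lower (edgeR adjusted p = 6.2e-08 and 1.49e-06). CDCA7 and USP7 were chosen after their values were seen.

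Genes for removing and reading DNA methylation were called in both directions. Of 12 genes listed for demethylation 11 were tested, 7 were lower and 1 higher (median log2 -0.33). Of all tested genes 20.4% were lower and 20.6% higher. Fewer of the list were lower with either shRALY library left out, as was so over all tested genes. Without shControl replicate 1 more of the list were higher. TET1, which oxidises methylcytosine, averaged 2.46 ± 0.325 CPM in shRALY and 5.87 ± 0.249 CPM in shControl (2.39-fold lower; edgeR adjusted p = 0.000561), and the repair scaffold XRCC1 was 2.09-fold lower. TDG, the glycosylase that removes oxidised methylcytosine, was the 1 gene that rose, to 75.3 ± 6.08 CPM in shRALY against 42.4 ± 4.69 CPM in shControl (log2 0.83, SE 0.12; edgeR adjusted p = 7.75e-06). APEX1, the most abundant per kilobase of exon union but with fewer CPM than IDH1, was at log2 -0.33 and no longer passed with either shRALY library left out (edgeR adjusted p = 0.243 without replicate 1 and 0.199 without replicate 2). Among 9 tested methyl-CpG readers 3 were lower and 1 higher (median -0.07), beside 20.4% and 20.6% over all tested genes. MBD3 was 1.47-fold lower (edgeR adjusted p = 0.000383), and ZBTB4, the most abundant per kilobase of exon union but with fewer CPM than ZBTB38, did not pass (log2 -0.18), although it did without shControl replicate 1 (log2 -0.36) and turned to 0.03 without shControl replicate 2. MBD5 was higher at log2 0.42 (edgeR adjusted p = 0.0496), and did not pass under 6 alternatives, among them DESeq2 (adjusted p = 0.145) and the omission of shRALY replicate 1 (0.187), shRALY replicate 2 (0.242) or shControl replicate 2 (0.119).

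Polycomb genes other than EZH2 were called in both directions. Of 11 tested PRC2 subunits 4 were lower and 1 higher (median log2 -0.21, beside 20.4% and 20.6% of all tested genes). Fewer of them were lower with either shRALY library left out, as was so over all tested genes. PHF19, which targets PRC2 to methylated lysine 36 of histone H3, fell to 43.7 ± 5.24 CPM in shRALY, against 103 ± 8.10 CPM in shControl (2.35-fold; edgeR adjusted p = 2.04e-08). SUZ12 and RBBP7, core subunits, were at log2 -0.49 and -0.46, and neither passed with a shRALY library left out (edgeR adjusted p = 0.0687 and 0.0679 without replicate 1, 0.0523 and 0.0698 without replicate 2). JARID2, a DNA-binding cofactor, was higher, at 34.8 ± 1.86 CPM in shRALY and 22.0 ± 0.984 CPM in shControl (log2 0.66; edgeR adjusted p = 0.000398). Of 21 PRC1 subunits, all tested, 3 were lower and 4 higher (median 0.17), shares no larger than the 20.4% and 20.6% over all tested genes. The chromodomain subunit CBX2 averaged 16 ± 0.22 CPM in shRALY and 45.0 ± 9.49 CPM in shControl (2.81-fold lower; edgeR adjusted p = 3.61e-08). PCGF5 was 1.62-fold higher and KDM2B 1.47-fold lower, and KDM2B did not pass with shRALY replicate 1 left out (edgeR adjusted p = 0.0743).

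Among 17 tested genes of H3K9 methylation and its HP1 readers, 12 were lower and 1 higher (median log2 -0.40). Of all tested genes 20.4% were lower and 20.6% higher. Fewer of the list were lower with either shRALY library left out, as was so over all tested genes. CBX5 (HP1 alpha), which binds methylated H3K9, fell to 170.1 ± 9.64 CPM in shRALY, against 349 ± 3.25 CPM in shControl (log2 -1.04, SE 0.10; edgeR adjusted p = 2.72e-08). CBX3 (HP1 gamma), the most abundant, was at log2 -0.53 (edgeR adjusted p = 0.00169; 0.0921 with shRALY replicate 2 left out). ATF7IP2 was the 1 gene that rose (log2 0.77; edgeR adjusted p = 0.00194). The erasers of H3K9 and H3K27 methylation were split, with 6 of 14 higher and 4 lower (median 0.35, beside 20.6% and 20.4% of all tested genes). KDM4A was among the higher genes, but it shares 44.8% of its sequence words with other genes, chiefly AL451062.3, so its count is uncertain. KDM7A, a demethylase of both marks, rose to 24.4 ± 0.593 CPM in shRALY, against 6.80 ± 1.09 CPM in shControl (3.59-fold; edgeR adjusted p = 1.14e-08), and the H3K27 demethylase KDM6B rose 1.97-fold (edgeR adjusted p = 4.28e-06). PHF8 was 2.31-fold lower, KDM3B 1.58-fold lower and the most abundant, KDM1A (LSD1), 1.46-fold lower.

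Most genes of the deacetylase complexes and most of the methyl donor genes did not pass. Of 18 tested NuRD and histone deacetylase genes 4 were lower and 1 higher (median log2 -0.12). These shares were close to or below the 20.4% and 20.6% over all tested genes. With either shRALY library left out fewer of the list were lower, as was so over all tested genes. CHD4 was among the 4 lower genes, but 86.8% of the 50-base words of its longest transcript are shared with other genes, chiefly AC006064.6. Its count is therefore uncertain. HDAC2 was 1.46-fold lower (edgeR adjusted p = 0.000747). CHD3 was at log2 -0.42 (edgeR adjusted p = 0.00271; 0.145 and 0.0693 with shRALY replicate 1 or 2 left out). SIRT6, the 1 higher gene, was at 0.37 (edgeR adjusted p = 0.0399) and did not pass under 6 alternatives, among them DESeq2 (adjusted p = 0.103) and the omission of shRALY replicate 1 (0.185), shRALY replicate 2 (0.259) or shControl replicate 1 (0.0601). Without shControl replicate 2 the list had 2 higher genes. The most abundant, CDK2AP1, did not pass (log2 -0.17). Of 13 tested genes of the methyl donor cycle, which supplies S-adenosylmethionine, 6 were lower and 0 higher (6 and 0 by unadjusted p under 0.05, 5 and 0 by DESeq2; median -0.20; 20.4% and 20.6% of all tested genes). SHMT1, which feeds folate one-carbon units, fell to 33.4 ± 1.44 CPM in shRALY, against 87.9 ± 1.18 CPM in shControl (2.63-fold; edgeR adjusted p = 1.4e-09), and AMD1, which decarboxylates S-adenosylmethionine, was 1.74-fold lower. AHCY, the most abundant, was at log2 -0.31 (edgeR adjusted p = 0.0166; 0.227 and 0.291 with shRALY replicate 1 or 2 left out). Without shControl replicate 1 the list had 1 higher gene.

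Genes that this machinery is known to hold silent were also counted. Of 24 germline genes 9 had no reads in any library and 5 reached the filter. Of these 5, 1 was higher and 0 lower (at unadjusted p under 0.05, 1 and 1, and by DESeq2, 0 and 0). That was near the 20.6% of all tested genes called higher, and 20.4% were called lower. PIWIL2, of the piRNA pathway, had 31 and 13 reads in shRALY and 2 and 6 in shControl (log2 2.41, SE 0.69; edgeR adjusted p = 0.00755), which did not pass by DESeq2 (adjusted p = 0.059) or with shRALY replicate 1 (edgeR adjusted p = 0.253) or shControl replicate 1 (0.0729) left out. MAGEA6, the most abundant, had 14.7 and 14.3 CPM in shRALY and 11.6 and 13.1 CPM in shControl and did not pass (log2 0.23), and it shares 56.6% of its sequence words with other genes. The list summed to 22.2 and 20.7 CPM in shRALY and 20 and 17.8 CPM in shControl. Of 11 endogenous retrovirus genes found in the files 5 were tested, 1 was higher and 0 lower (at unadjusted p under 0.05 and by DESeq2 also 1 and 0), and 1 was lower with shRALY replicate 1 or 2 left out. ERVK9-11 rose to 17 ± 2.67 CPM in shRALY, against 8.86 ± 0.90 CPM in shControl (1.92-fold; edgeR adjusted p = 0.000228). The 1 higher of 5 tested retrovirus genes was likewise near the 20.6% over all tested genes, with 20.4% lower. These gene counts do not cover the repeat copies outside annotated genes. Of 13 tested KRAB zinc finger genes, whose proteins recruit TRIM28, 2 were lower and 1 higher (median 0.15), both below the shares of 20.4% and 20.6% over all tested genes. Leaving out either shRALY library gave fewer lower genes, as was so over all tested genes, and leaving out shControl replicate 1 gave more higher genes. ZNF445 was at log2 -0.51 (edgeR adjusted p = 0.00472; 0.0942 and 0.0704 with shRALY replicate 1 or 2 left out) and ZNF587 at -0.48 (0.0104; 0.0576 and 0.204), the second with 20.2% of its sequence words shared with other genes. ZNF140 was at log2 0.79 (edgeR adjusted p = 0.00128; 0.0554 with shRALY replicate 2 left out), and the most abundant, ZNF274, at 0.18 (edgeR adjusted p = 0.316).

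Replication genes were much lower in the same libraries. All 22 listed replication genes were called lower, against 20.4% of all tested genes (median log2 -2.22, against -1.48 for the 10 silencing genes). Their levels summed to 804 and 756 CPM in shRALY and to 2963 and 2906 CPM in shControl. RRM2, of nucleotide supply, was 9.22-fold lower, although 29.4% of its sequence words are shared with other genes, and ASF1B, a histone chaperone, was 15.4-fold lower. The proliferation marker MKI67 had 25.1 and 30.9 CPM in shRALY and 449 and 570.1 CPM in shControl (18.2-fold lower; edgeR adjusted p = 2.69e-16). The log2 values of UHRF1 (-2.43) and HELLS (-1.98) lay within the range of the replication list, -3.95 for ASF1B to -0.89 for PCNA, as did those of DNMT3B, EZH2, SUV39H1 and DNMT1. Those of TRIM28, EHMT2, DNMT3A and SETDB1 lay outside it. The part of the lower replication and proliferation genes in the falls of the silencing genes was not tested.

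**Figure D4:**
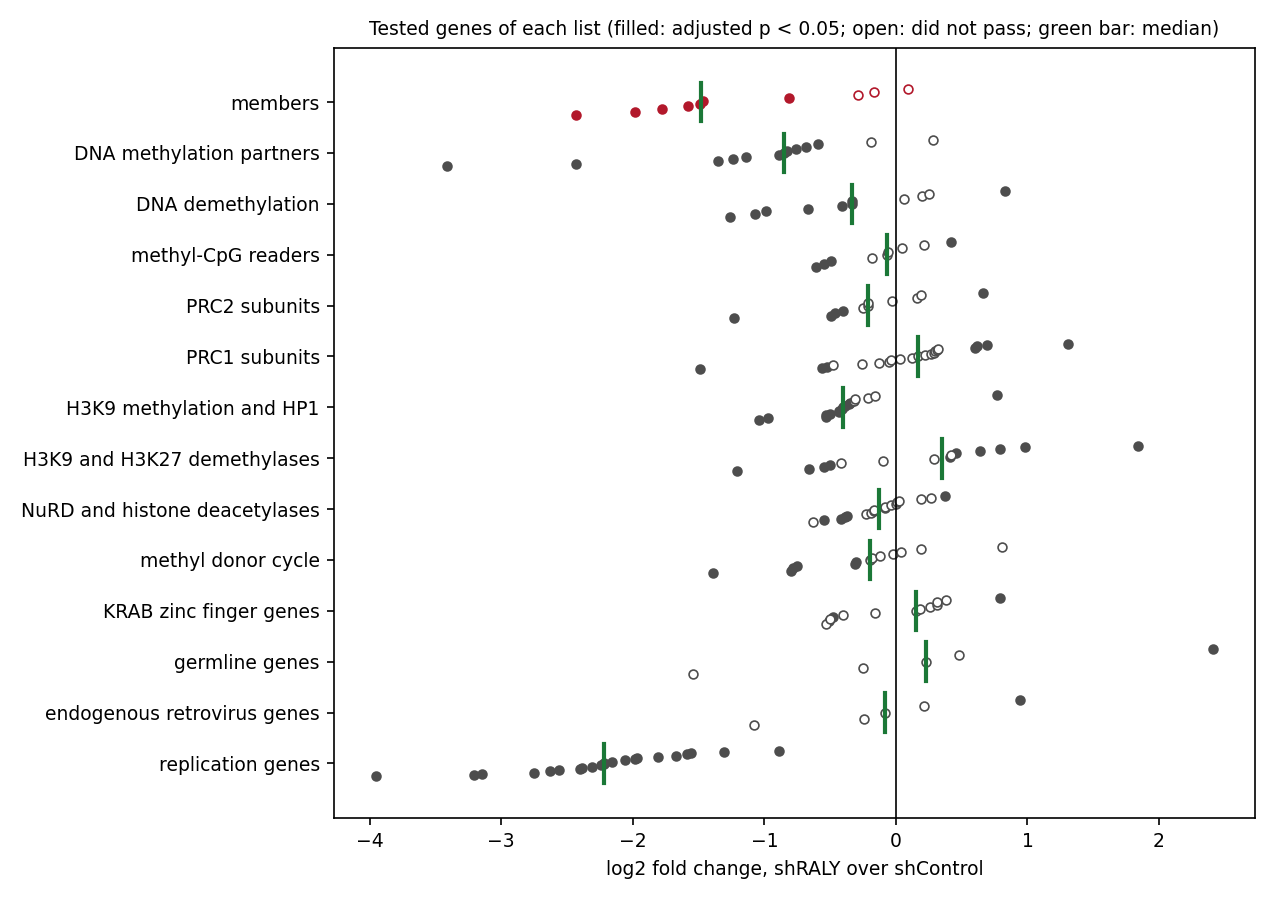
Log2 fold change (shRALY over shControl) of every tested gene in each list, 1 row a list; filled points passed an edgeR adjusted p of 0.05, open points did not, and green bars are medians. The 10 silencing genes (top, median -1.48) and the replication genes (bottom, median -2.22) lie to the left, while the demethylases (0.35) and PRC1 subunits (0.17) spread to both sides of 0.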

How the data were processed

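Per the labels, polyadenylated RNA of A549 cells was made into Illumina TruSeq libraries. The authors deposited raw counts per Ensembl gene, 1 file a library, not pooled. The submitters' processing notes name HISAT2 2.0.5, featureCounts 1.5.0-p3, DESeq2 1.20.0 and hg38; the annotation, the strand setting and how multi-mapping reads were treated are not stated there. All 58735 identifiers matched GENCODE 29 (GRCh38). Genes were filtered with filterByExpr (minimum count 10, minimum total 15), scaled by TMM and tested across all 15912 kept genes with edgeR 4.0.16 in R 4.3.3 (robust quasi-likelihood F-test, 2 residual degrees of freedom, no covariate); p-values were Benjamini-Hochberg adjusted over all of them. SE was taken as the size of the log2 fold change over the root of its F statistic. Both count tests were tested on simulated data. Libraries held 16745818 to 18632787 reads, so 3 reads, the limit a count of 0 allows, equal 0.163 to 0.183 CPM; this covers counting error only. Replicates differed by more than sampling noise (chi-square per gene 4.92 in shRALY, 11.8 in shControl). Named genes were RALY, MKI67, the 10 genes, and in each list the 2 lowest and 2 highest called log2 fold changes at 1 CPM or more plus the most abundant per kilobase; some genes this rule names are not reported here. The 10 genes and the lists were chosen with earlier results of these data known. Alternatives were DESeq2 1.42.0, RLE scaling, library size alone, no filter, a 10 CPM filter, no robust estimation, a replicate block, each library left out, protein-coding genes alone, and transcript length for levels.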

Additional observations from a re-analysis of the deposited data

How the results depend on the processing

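The 7 falls (DNMT1, DNMT3B, UHRF1, HELLS, EZH2, SUV39H1 and TRIM28) kept their direction and their edgeR or DESeq2 call under each of the 12 alternatives to the test, with log2 fold changes of -2.61 to -2.21 for UHRF1, -1.59 to -1.34 for DNMT1 and -0.87 to -0.74 for TRIM28. Of 120 values over the 10 genes, 116 stayed on their side of the threshold and 4 moved past it: DNMT3A without shControl replicate 1, and EHMT2 with library size alone, without shControl replicate 1 and with the replicate number as a replicate block (edgeR adjusted p = 0.0257). SETDB1 passed under none (log2 0.03 to 0.14; adjusted p 0.457 to 0.882). The count called lower was 7 to 9 and the count called higher 0 throughout. The number alone does not pair these libraries: same-numbered libraries deviated from their group means with a correlation of 0.105 across 14251 genes. With the replicate block 8 of the 10 genes were lower, and the share of all tested genes under it is not given here. Library size alone moved the median log2 fold change of all genes to -0.07. ZBTB4, which did not pass, ranged from -0.36 (without shControl replicate 1) to 0.03 (without shControl replicate 2). Of 50 named list genes, 15 lost their call under 1 or more alternatives. KRAB zinc finger genes called lower were 4 with library size alone or the replicate block, against 2, and NuRD genes called higher 2 with the block, against 1. Other list counts that moved by over 1.5 times did so with a library left out or from a count of 1; the cause was not tested. Depth limits DNMT3B most, at 69 to 290 reads a library.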
